A study of Rattus norvegicus with 8 samples.

Results

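The genes Cd74, RT1-Da, RT1-Ba and RT1-Bb of the major histocompatibility complex (MHC) class II pathway were followed in primary rat chondrocytes, the cells of cartilage. These 4 of 14217 named genes were read from all 8 probe sets that the array's annotation assigns to only 1 of them, of 31042 probe sets on the array after 57 controls were left out. Cd74 and RT1-Da had 1 probe set each, RT1-Ba had 4 and RT1-Bb had 2. The cells came from femoral condyles of Sprague Dawley rats aged 1 day and were kept without serum overnight. In each of 2 independent experiments, 1 array was run for each of 4 treatments, 8 arrays in all. TNFα cultures received DMSO for 30 minutes and then tumour necrosis factor α at 30 ng/ml for 24 hours. U0126/TNFα cultures received U0126, an inhibitor of the kinases MEK1/2 that activate ERK1/2, before the same TNFα. U0126 cultures and DMSO cultures received the inhibitor or its solvent, followed by bovine serum albumin as the vehicle of TNFα. The cells were the same strain, age and source in all 4 treatments, and no genetic change was made. The methods describe the cultures as nearly pure chondrocytes. They were measured in bulk, so fewer expressing cells and less RNA per cell cannot be told apart.

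MHC class II molecules are pairs of an α and a β chain that display peptides from the endosomes and lysosomes to CD4+ T cells. Cd74, the invariant chain, binds newly made pairs in the endoplasmic reticulum, blocks their groove and leads them to the endosomes, where proteases remove it and a peptide takes its place. RT1-Da encodes the α chain of RT1.D, the rat counterpart of human HLA-DR. RT1-Ba and RT1-Bb encode the α and β chains of RT1.B, the counterpart of HLA-DQ. The genes are mainly active in dendritic cells, macrophages and B cells, and interferon γ turns them on in many other cells through the co-activator Ciita, which docks on factors bound to the X and Y boxes of their promoters.

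For each gene, the 250 bases before the start used in the RefSeq promoter table are shown because the 4 genes are known for shared promoter boxes. The sequences are those of RefSeq (build GRCr8), whose tables held all 4 genes. For Cd74 and RT1-Da the annotated gene begins further upstream than that start, so that the last 135 and 22 of the 250 bases lie inside it, and distances are counted from the start of the promoter table. That genome is of a Brown Norway rat, and the RT1 genes are polymorphic, so a Sprague Dawley rat may differ. The 250 bases shown for Cd74 lie on chr18:56526956-56527205 on the plus strand, outside the MHC. Those for RT1-Da lie on chr20:4515165-4515414 and those for RT1-Ba on chr20:4576807-4577056, both on the plus strand. Those for RT1-Bb lie on chr20:4604119-4604368 on the minus strand. The letters run 5′ to 3′ along the gene, and capitals mark matches to the motifs described after them.
Cd74: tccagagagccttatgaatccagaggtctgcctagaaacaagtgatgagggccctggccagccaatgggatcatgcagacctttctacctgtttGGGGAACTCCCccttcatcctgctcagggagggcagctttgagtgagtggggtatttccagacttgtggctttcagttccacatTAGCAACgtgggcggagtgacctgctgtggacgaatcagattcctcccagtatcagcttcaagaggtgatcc
RT1-Da: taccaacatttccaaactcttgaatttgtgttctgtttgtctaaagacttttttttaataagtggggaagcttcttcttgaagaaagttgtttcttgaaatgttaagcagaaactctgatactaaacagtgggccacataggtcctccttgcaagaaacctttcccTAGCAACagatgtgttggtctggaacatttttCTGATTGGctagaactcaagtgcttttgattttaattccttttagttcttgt
RT1-Ba: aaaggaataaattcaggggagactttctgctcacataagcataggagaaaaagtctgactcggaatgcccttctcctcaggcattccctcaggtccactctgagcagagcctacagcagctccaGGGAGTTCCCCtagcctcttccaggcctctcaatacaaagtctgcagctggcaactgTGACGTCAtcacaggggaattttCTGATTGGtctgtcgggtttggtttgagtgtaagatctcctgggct
RT1-Bb: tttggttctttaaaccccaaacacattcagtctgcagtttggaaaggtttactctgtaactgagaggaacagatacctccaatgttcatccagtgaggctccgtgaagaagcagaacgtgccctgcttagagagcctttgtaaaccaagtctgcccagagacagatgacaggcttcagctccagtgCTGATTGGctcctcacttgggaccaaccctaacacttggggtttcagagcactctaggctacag

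Capitals mark 4 motifs, searched on both strands and chosen after these sequences were read. A core of the Y box, CTGATTGG, stood 52 to 45 bases before the start of RT1-Da, 46 to 39 bases before RT1-Ba and 64 to 57 bases before RT1-Bb, and 3.19% of 33469 promoters of the same length held it. It contains ATTGG, the reverse complement of CCAAT, which 34.0% of promoters held. A core of the X box, TAGCAAC, stood 72 to 66 bases before the start of Cd74 and 84 to 78 bases before RT1-Da, and was held by 2.88%. In Cd74 this match lies inside the annotated gene, which begins 135 bases before the start used here. The cyclic AMP response element TGACGTCA stood 69 to 62 bases before RT1-Ba and was held by 1.59%. The κB consensus, the motif of NF-κB, had a match whose last base stood 146 bases before Cd74 and 116 bases before RT1-Ba, and 3.54% of promoters held a match. Thus the chain genes shared the Y box letters searched close to their start, Cd74 and RT1-Da the X box letters, and Cd74 and RT1-Ba the κB letters. The X and Y box cores were searched as exact letters, so close variants were not counted. One such stretch is tggcaac shortly before TGACGTCA in RT1-Ba. A gene without a match may therefore still carry the box. These are matches of letters, and no binding was measured on the arrays.

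**Figure D1:**
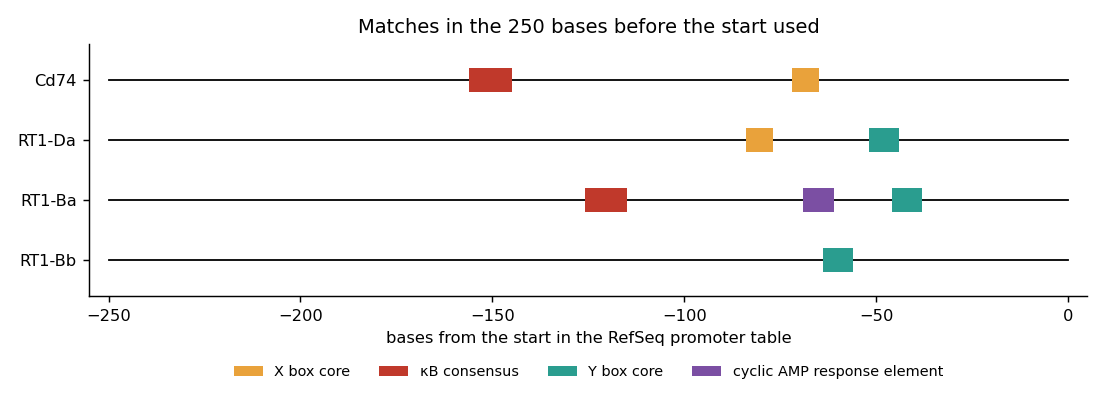
Position of the motif matches (coloured boxes) in the 250 bases before the start of Cd74, RT1-Da, RT1-Ba and RT1-Bb in the RefSeq promoter table, with the distance from that start in bases on the horizontal axis. The Y box core lies between 64 and 39 bases before the start in the 3 chain genes, and the X box core between 84 and 66 bases before it in Cd74 and RT1-Da.

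Cd74 was the member that differed most between TNFα and DMSO cultures. Intensities are given on a linear scale, as deposited but with each array scaled to a common median, and low ones are not known to lie above background because no detection calls were used. Cd74 (probe set 1367679_at) read 294.2 and 1239 in TNFα cultures of experiments 1 and 2, 204.9 and 662.8 in U0126/TNFα cultures, 137.9 and 212.3 in U0126 cultures, and 115.4 and 290.4 in DMSO cultures. Within each experiment the TNFα array was highest and the U0126/TNFα array next, but the TNFα array of experiment 1 lay close to the DMSO array of experiment 2, so the groups nearly overlap when the experiments are pooled. TNFα cultures held 2.55-fold and 4.27-fold as much Cd74 as DMSO cultures of the same experiment. In limma, a linear model with moderated variances that was fitted across all probe sets with the experiment as a block, this was a log2 fold change of 1.72 ± 0.29 (SE, n = 2 arrays per treatment, 95% interval 1.03 to 2.42, Benjamini-Hochberg adjusted p = 0.0248).

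RT1-Da was also higher with TNFα. RT1-Da (1370883_at), the α chain of RT1.D, read 212.3 and 889.6 in TNFα cultures, 233.1 and 617.4 in U0126/TNFα cultures, 154.5 and 383.5 in U0126 cultures, and 156.0 and 360.4 in DMSO cultures. Both arrays with TNFα stood above both without it in each experiment, whereas every array of experiment 2 stood above every array of experiment 1. The TNFα over DMSO folds were 1.36 and 2.47, with a limma log2 fold change of 0.87 ± 0.19 (SE, n = 2 arrays per treatment) and an adjusted p of 0.0497. RT1-Da therefore passed narrowly in limma. It missed the fold threshold of the study's methods, a change of at least 1.45-fold in both experiments with the same sign.

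The 4 probe sets of RT1-Ba, the α chain of RT1.B, did not move alike. RT1-Ba 1370822_at read 405.8 and 1022.5 in TNFα cultures, 397.4 and 773.7 in U0126/TNFα cultures, 418.6 and 455.9 in U0126 cultures, and 344.5 and 512.1 in DMSO cultures. RT1-Ba 1377334_at read 228.2 and 574.6 in TNFα cultures, 238.6 and 408.7 in U0126/TNFα cultures, 216.4 and 279.8 in U0126 cultures, and 215.2 and 272.4 in DMSO cultures. In both, the 2 arrays with TNFα stood clearly above those without it in experiment 2 only. Their TNFα over DMSO folds were 1.18 and 2.00 for RT1-Ba 1370822_at, and 1.06 and 2.11 for RT1-Ba 1377334_at. Neither passed limma (log2 fold changes 0.62 ± 0.25 and 0.58 ± 0.22, SE, adjusted p = 0.178 and 0.164).

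The other RT1-Ba probe sets, which derive from the same target sequence as each other, gave values within a narrow range in all treatments. RT1-Ba 1392334_at, with the highest mean of the 4 and so the one that stands for the gene by the rule used for other genes, ranged between 2426 and 2906 over the 8 arrays. RT1-Ba 1381593_x_at ranged between 1053 and 1429. Their TNFα over DMSO folds were 1.03 and 0.90 for RT1-Ba 1392334_at, and 1.09 and 0.84 for RT1-Ba 1381593_x_at, with limma log2 fold changes of -0.060 ± 0.078 and -0.065 ± 0.10 (SE, adjusted p = 0.654 and 0.714). The suffix x marks a probe set with probes that may bind other transcripts. Which pair measures RT1-Ba in these Sprague Dawley cells was not tested, so no single value is given for the gene.

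RT1-Bb, the β chain that pairs with RT1-Ba, gave low intensities and no call. RT1-Bb 1371065_at read 194.5 and 255.8 in TNFα cultures, 178.1 and 216.3 in U0126/TNFα cultures, 170.2 and 174.2 in U0126 cultures, and 184.9 and 231.5 in DMSO cultures. RT1-Bb 1371033_at ranged between 103.1 and 158.6 over the 8 arrays. The TNFα over DMSO folds were 1.05 and 1.11 for RT1-Bb 1371065_at and 0.95 and 1.31 for RT1-Bb 1371033_at (adjusted p = 0.484 and 0.399). The limma 95% intervals of the log2 fold change, -0.11 to 0.33 and -0.11 to 0.42, lie below the estimate for Cd74. With U0126 alone, RT1-Bb 1371065_at had folds of 0.92 and 0.75 over DMSO, which did not pass the test (adjusted p = 0.326).

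**Figure D2:**
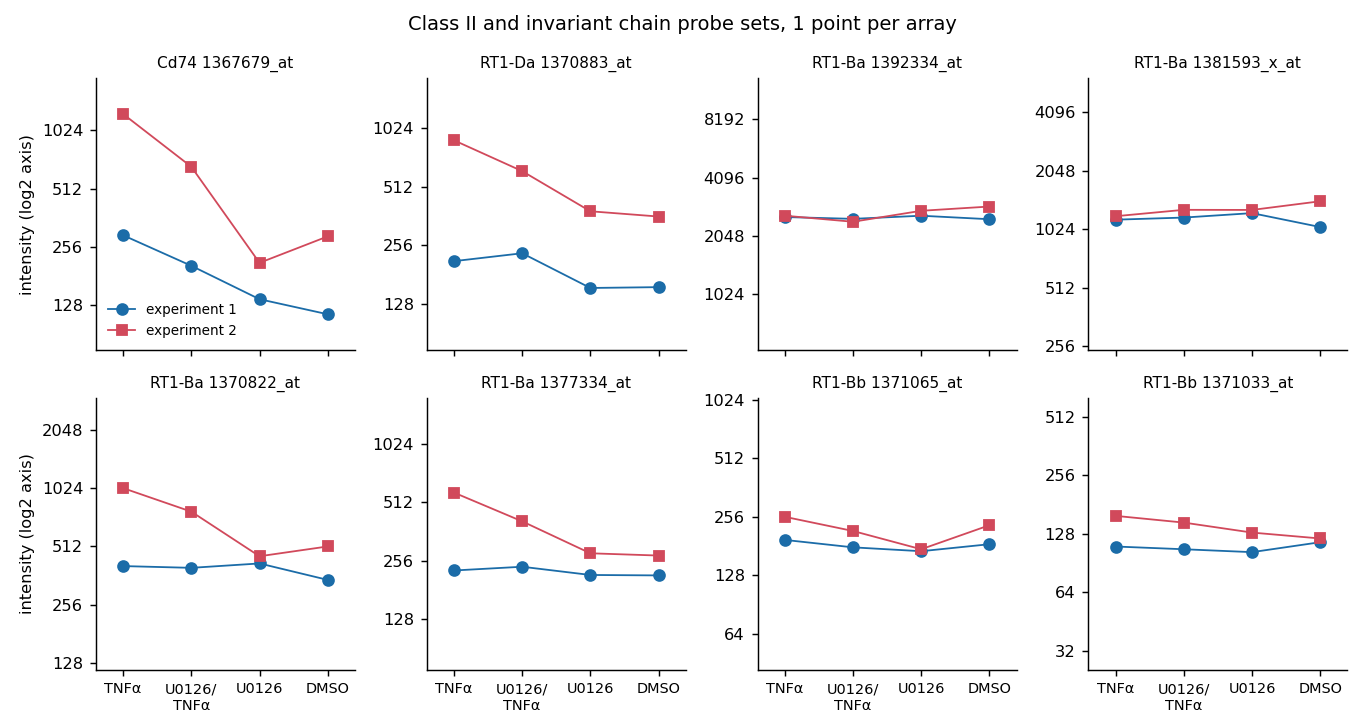
Intensity of each probe set (log2 axis, every panel spanning the same fold range) in TNFα, U0126/TNFα, U0126 and DMSO cultures, with circles for experiment 1 and squares for experiment 2, 1 array per point. Cd74 is highest in the TNFα array of both experiments (294.2 and 1239), RT1-Da and the RT1-Ba probe sets 1370822_at and 1377334_at are highest there in experiment 2, and the other RT1-Ba and RT1-Bb probe sets stay close together.

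Counted over the members, 2 of 8 probe sets, those of Cd74 and RT1-Da, were higher with TNFα than with DMSO in limma, beside 5.19% of all probe sets called in either direction (1611, of which 1057 were higher). The median log2 fold change of the 8 was 0.37, against -0.02 over all probe sets. The fold rule took 1 of 8, Cd74, beside 2.02% of all. The calls rest on few arrays. Cd74 kept its call without either U0126 array and without the TNFα array of experiment 1, and lost it without either DMSO array, either U0126/TNFα array or the TNFα array of experiment 2, with adjusted p between 0.0552 and 0.12, while its log2 fold change stayed between 1.29 and 2.15. RT1-Da kept its call only without either TNFα array, with adjusted p of 0.00507 without that of experiment 1 and 0.0431 without that of experiment 2, and without any of the other arrays its adjusted p was between 0.0835 and 0.211. Without the TNFα array of experiment 1, RT1-Ba 1377334_at passed too (adjusted p = 0.0338), and 3 members were called. Without the replicate block, 0 were called.

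To see whether the responses needed MEK/ERK, the same TNFα was set against its own control in the presence of U0126. Cd74 was 1.49-fold and 3.12-fold higher in U0126/TNFα than in U0126 cultures, and RT1-Da 1.51-fold and 1.61-fold. Both met the fold rule, 2 of 8 members beside 1.21% of all probe sets. In limma, 0 of 8 members passed (1.24% of all probe sets did), with log2 fold changes of 1.11 ± 0.29 for Cd74 (SE, adjusted p = 0.168) and 0.64 ± 0.19 for RT1-Da (SE, adjusted p = 0.217). An unadjusted limma p under 0.05 was found for 2 of 8, beside 3890 of all 31042 probe sets. RT1-Da passed without either TNFα array (adjusted p = 0.0161). The median log2 fold change of the 8 was 0.27, against -0.01 over all probe sets. The RT1-Ba probe set 1370822_at had folds of 0.95 and 1.70 and the RT1-Ba probe set 1377334_at 1.10 and 1.46, again higher in experiment 2, and the other RT1-Ba and RT1-Bb probe sets lay between 0.88 and 1.24.

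**Figure D3:**
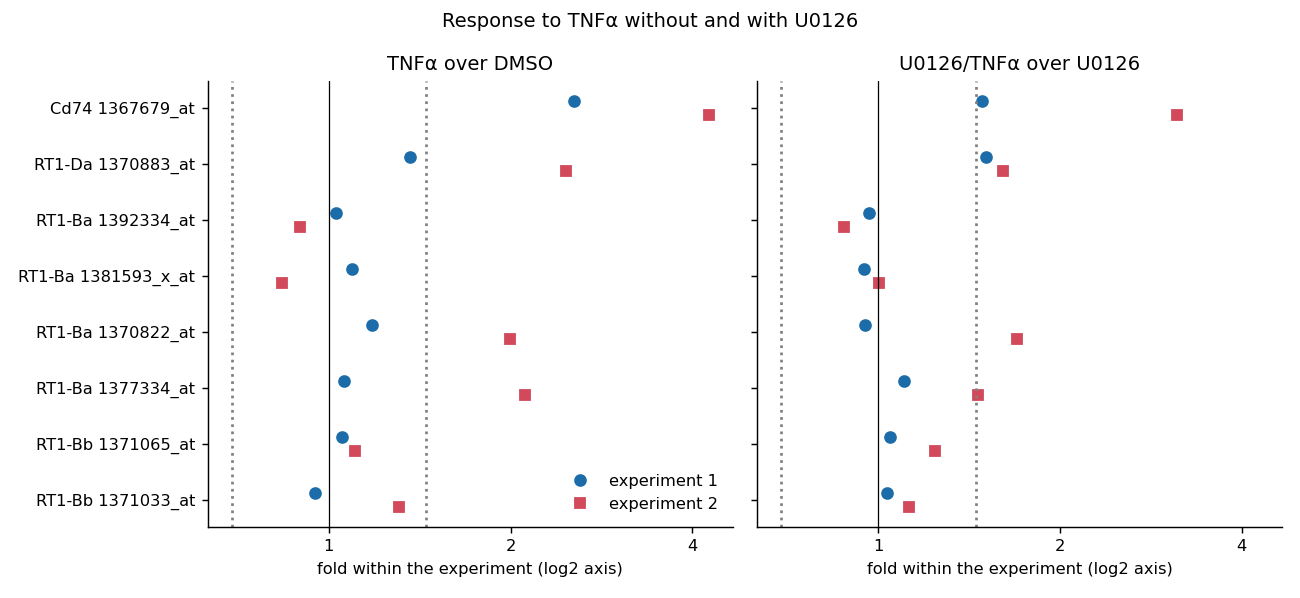
Fold within each experiment (log2 axis) for TNFα over DMSO and for U0126/TNFα over U0126, by probe set, with circles for experiment 1, squares for experiment 2 and dotted lines at 1.45-fold in either direction. Cd74 lies past 1.45-fold in all 4 positions, RT1-Da in 3 of them, and RT1-Ba 1370822_at and RT1-Ba 1377334_at only in experiment 2.

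The size of the response with and without the inhibitor was then compared. The U0126/TNFα over TNFα folds were 0.70 and 0.53 for Cd74, lower with the inhibitor in both experiments, and 1.10 and 0.69 for RT1-Da, higher in one and lower in the other. In limma, 0 of 8 members passed this comparison (0.254% of all probe sets did), and 0 of 8 met the fold rule (0.763%), with Cd74 just under the threshold in experiment 1. The limma log2 fold change of Cd74 was -0.71 (95% interval -1.41 to -0.02, adjusted p = 0.384). Of the members, 1 of 8, Cd74, had an unadjusted p under 0.05, beside 3927 of all 31042 probe sets, a similar share. The response to TNFα with U0126 minus that without was -0.62 ± 0.42 on the log2 scale for Cd74 (SE, 95% interval -1.60 to 0.37, adjusted p = 0.658) and -0.23 ± 0.27 for RT1-Da (SE, interval -0.87 to 0.40, adjusted p = 0.8). For Cd74 it was -0.076 without the U0126 array of experiment 1 and -1.15 without that of experiment 2, so its size depends on single arrays. This difference was called for 0 of 8 members and for 0.0% of all probe sets, with 0 members and 2833 probe sets at an unadjusted p under 0.05. As a description, the log2 response left in U0126 was 42.3% and 78.5% of that without it for Cd74, and 134% and 52.7% for RT1-Da, in experiments 1 and 2. The interval for Cd74 spans a near complete loss of its response as well as no loss.

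With U0126 alone, 0 of 8 members passed limma against DMSO, beside 0.058% of all probe sets, and 0 of 8 met the fold rule (0.29%). Of the 8, 1 had an unadjusted p under 0.05, RT1-Bb 1371065_at, beside 4118 of all 31042 probe sets, a similar share. The U0126 over DMSO folds were 1.20 and 0.73 for Cd74 and 0.99 and 1.06 for RT1-Da. In order of level within experiment 1, Cd74 ran TNFα, U0126/TNFα, U0126 and DMSO, and within experiment 2 DMSO and U0126 changed places. In limma no neighbours in the order of experiment 1 differed past the threshold.

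Cd74 and RT1-Da also differed between the experiments. Experiment 2 over experiment 1 was 4.21 in TNFα, 3.24 in U0126/TNFα, 1.54 in U0126 and 2.52 in DMSO cultures for Cd74. For RT1-Da the ratio was 4.19 in TNFα, 2.65 in U0126/TNFα, 2.48 in U0126 and 2.31 in DMSO cultures. These 2 of 8 members were at least 1.45-fold higher in experiment 2 in all 4 treatments, as were 1.88% of all probe sets. For both RT1-Ba probe sets that moved, the ratio was 2.52 in TNFα cultures, and in DMSO cultures it was 1.49 for RT1-Ba 1370822_at and 1.27 for RT1-Ba 1377334_at. For the other RT1-Ba and RT1-Bb probe sets it lay between 0.97 and 1.44 in every treatment. In DMSO cultures the ratio of the members ran from 1.045 for RT1-Bb 1371033_at to 2.52 for Cd74. The TNFα over DMSO fold was smaller in experiment 2 for RT1-Ba 1392334_at and RT1-Ba 1381593_x_at, and larger there for the other members. These directions were not counted over all probe sets, so they only describe the members.

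Markers of several cell types differed between the experiments. Of 16 macrophage markers, 3 were at least 1.45-fold higher in experiment 2 in all 4 treatments, beside 1.88% of all probe sets. They were Adgre1 (the F4/80 antigen), Lyz2 (lysozyme) and Fcer1g (the Fc receptor γ chain). Of 4 endothelial markers 1 met this threshold, Tek, with ratios between 2.56 and 3.63. The others did not rise with it, with ratios between 0.92 and 0.98 for Vwf and between 0.90 and 1.02 for Pecam1 and Kdr. Of 5 fibroblast markers 0 met it, although 4 read higher in experiment 2 in all 4 treatments. Their ratios lay between 1.25 and 1.35 for Col3a1 and between 1.13 and 1.16 for Col1a1. For the remaining marker, Thy1, the ratio lay between 0.808 and 1.075. Chondrocyte markers read lower in experiment 2, with ratios between 0.52 and 0.58 for Acan and between 0.37 and 0.47 for Hapln1. Adgre1 read 35.3 and 340.4 in TNFα cultures of experiments 1 and 2, 37.1 and 143.4 in U0126/TNFα, 33.9 and 146.2 in U0126, and 30.0 and 201.4 in DMSO cultures. Mrc1, the mannose receptor, read 89.0 and 266.4 in TNFα cultures, 87.0 and 117.7 in U0126/TNFα, 83.4 and 112.5 in U0126, and 104.4 and 154.8 in DMSO cultures. In experiment 2 both were among the 5 of 16 markers that were highest in the TNFα array, while Lyz2 (1220 in TNFα and 1241 in DMSO cultures) and Fcer1g (558.4 in TNFα and 566.7 in DMSO cultures) were not. The median log2 fold change of the 16 for TNFα over DMSO was -0.083. Within experiment 1 Adgre1 stayed between 30.0 and 37.1. There 2 of 16 markers, Cd68 and Cd14, were highest in the TNFα array, with TNFα over DMSO folds of 2.19 and 1.73.

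Summed over the 16 markers, the intensity was 5564 and 7098 in TNFα cultures, 4823 and 5925 in U0126/TNFα, 5077 and 6148 in U0126, and 5076 and 6714 in DMSO cultures. Cd68, a lysosomal protein of macrophages, was the 1 marker of 16 called for TNFα over DMSO (folds 2.19 and 1.48, adjusted p = 0.0228), and it lost the call without either DMSO or either U0126 array. Ptprc, the pan-leukocyte antigen CD45, read between 60.6 and 69.7 and Cd163 between 49.1 and 58.7 on all arrays. Of the dendritic cell markers 1 of 4 was called, Cd83 (adjusted p = 4.99e-04), a membrane protein that activated cells of several kinds also make, while Itgax, Flt3 and Clec9a were not. Of the B cell markers 0 of 3 were called, of the T cell markers 0 of 5, of the endothelial markers 0 of 4 and of the fibroblast markers 1 of 5 (Pdgfra, adjusted p = 0.0482). The chondrocyte markers, among them Col2a1 (type II collagen) and Acan (aggrecan), were among the brightest probe sets, and 5 of 8 were lower with TNFα, 3 or 4 of them when single arrays were left out. Whether cells other than chondrocytes, or their number, had a part in the values of Cd74 and the RT1 genes was not tested.

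**Figure D4:**
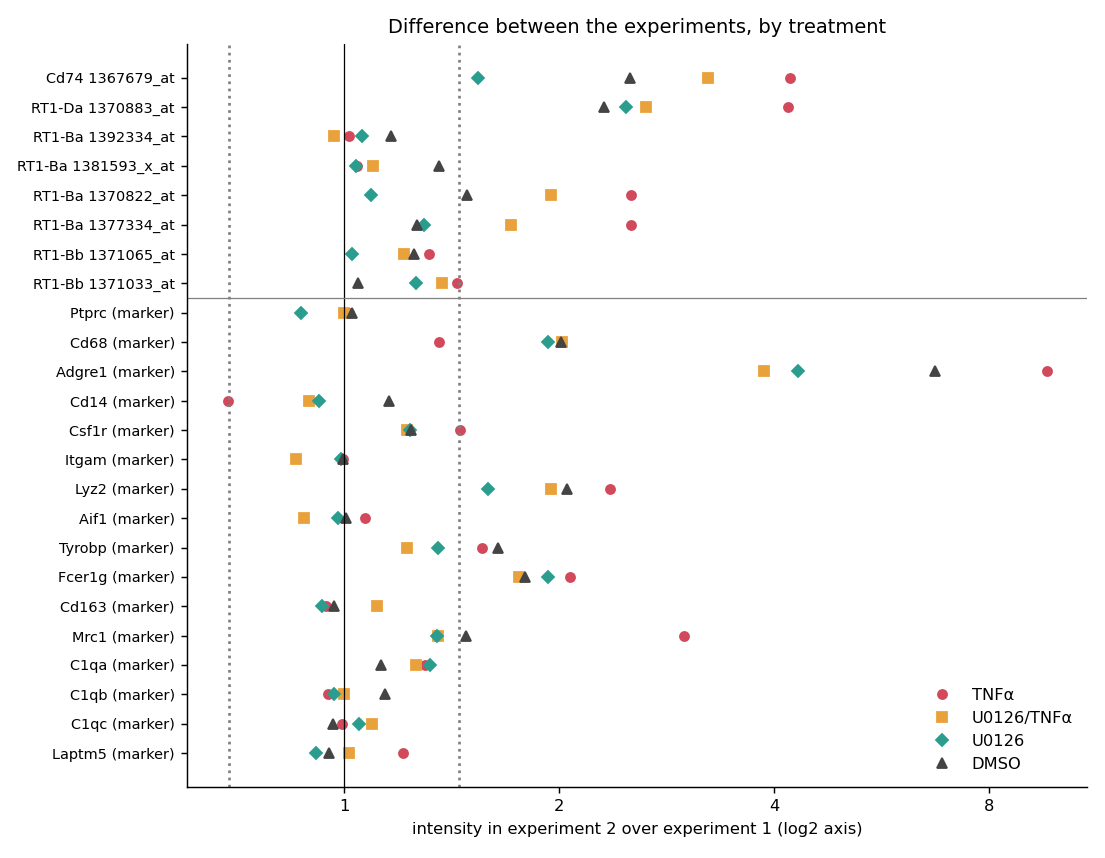
Intensity in experiment 2 over experiment 1 (log2 axis, dotted lines at 1.45-fold in either direction) in TNFα, U0126/TNFα, U0126 and DMSO cultures, for the 8 probe sets above the line and 16 macrophage markers under it. Cd74, RT1-Da, Adgre1, Lyz2 and Fcer1g lie past 1.45-fold in all 4 treatments, while Ptprc, Itgam and Cd163 lie near 1.

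The regulators of class II genes were mostly level. Ciita, the co-activator on which class II transcription depends, read 290.5 and 273.6 in TNFα, 281.7 and 264.4 in U0126/TNFα, 304.8 and 293.9 in U0126, and 312.7 and 314.3 in DMSO cultures. In both experiments it was lowest in U0126/TNFα and highest in DMSO cultures, and it did not pass the test (TNFα over DMSO folds 0.93 and 0.87, adjusted p = 0.178). Rfx5, the DNA-binding subunit of the factor on the X box, was the 1 regulator of 8 called, with 3245 and 3384 in TNFα cultures and 2197 and 2437 in DMSO cultures (log2 fold change 0.52, adjusted p = 0.00815). It lost that call without the DMSO array of experiment 1. The other subunits Rfxap and Rfxank, the Y box factors Nfya, Nfyb and Nfyc, and Creb1 did not pass, and the median of the 8 was 0.08.

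The remaining class II chains gave no call. RT1-Db1, the β chain that pairs with RT1-Da, read 285.4 and 411.0 in TNFα cultures, 296.6 and 431.7 in U0126/TNFα, 268.2 and 307.7 in U0126, and 255.3 and 346.9 in DMSO cultures (TNFα over DMSO adjusted p = 0.224). On this probe set, the brighter of those for RT1-Db1, it was higher with TNFα in both experiments, by less than RT1-Da. The dimmer RT1-Db1 probe set read 21.0 and 30.7 in TNFα cultures and 22.2 and 21.5 in DMSO cultures. It was thus higher with TNFα in experiment 2 only, and did not pass limma (TNFα over DMSO adjusted p = 0.365). RT1-DMa and RT1-DMb, the chains of the molecule that exchanges the remnant of Cd74 for peptide, had log2 fold changes of 0.032 and -0.044 for TNFα over DMSO. So 0 of these 3 measured genes of 7 listed were called.

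Enzymes that trim Cd74 and its cargo were higher with TNFα in 4 of 7 cases. Ctss, cathepsin S, the protease that cuts the last part of Cd74 in antigen-presenting cells, read 1070 and 2270 in TNFα cultures, 720.2 and 1399 in U0126/TNFα, 519.0 and 1145 in U0126, and 745.8 and 1692 in DMSO cultures. Ctss had a log2 fold change of 0.47 for TNFα over DMSO (adjusted p = 0.0184) and was lower in U0126/TNFα than in TNFα cultures (log2 fold change -0.63, adjusted p = 0.0393). For U0126 over DMSO the log2 fold change of Ctss was -0.54 (adjusted p = 0.12). Its response to TNFα with U0126 minus that without was only -0.09 (adjusted p = 0.798). Ifi30, a lysosomal thiol reductase, Ctsb, cathepsin B, and Lgmn, legumain, followed with log2 fold changes of 0.39, 0.50 and 0.42 for TNFα over DMSO (adjusted p = 0.0219, 0.0447 and 0.0459). These calls depend on single arrays, since leaving out any 1 array left 0 or 1 of the 4, and the lower Ctss in U0126/TNFα cultures was lost whichever array was left out. Ctsl, Ctsd and Sppl2a did not pass.

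Partners of Cd74 at the cell surface were higher with TNFα in 3 of 6 cases. Mif, the cytokine for which Cd74 is a receptor, read 11411 and 7535 in TNFα cultures and 7917 and 5689 in DMSO cultures (log2 fold change 0.47, adjusted p = 0.0175). Cd44, which signals together with Cd74, read 1871 and 1079 in TNFα cultures and 550.8 and 647.3 in DMSO cultures (log2 fold change 1.25, adjusted p = 0.0270). Ackr3, an atypical chemokine receptor that also binds Mif, had a log2 fold change of 0.88 over DMSO (adjusted p = 0.00225) and, with U0126 present, 0.85 over U0126 (adjusted p = 0.00535). For TNFα over DMSO, Ackr3 was called whichever array was left out, Cd44 was lost without either DMSO, U0126 or U0126/TNFα array, and Mif without either DMSO array or the TNFα array of experiment 1. With U0126 present, Ackr3 lost its call without either U0126 or either U0126/TNFα array. Ddt, Cxcr2 and Cxcr4 did not pass.

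The pathway of interferon γ, the main inducer of class II genes, gave 4 calls among 7 genes. Irf1, an interferon response factor that also acts on the Ciita gene, read 3719 and 4911 in TNFα cultures, 4001 and 5748 in U0126/TNFα, 1270 and 2035 in U0126, and 1072 and 1625 in DMSO cultures. Its log2 fold change was 1.70 for TNFα over DMSO (adjusted p = 3.21e-04) and 1.58 for U0126/TNFα over U0126 (adjusted p = 8.74e-04). The receptor chains Ifngr1 and Ifngr2 and the kinase Jak2 had log2 fold changes of 0.98, 0.76 and 1.91 for TNFα over DMSO (adjusted p = 7.52e-04, 0.00569 and 0.0106), of which Jak2 was lost without either DMSO array. Ifngr1 and Ifngr2 were also called with U0126 present (0.53 and 0.70, adjusted p = 0.0116 and 0.0155), and Ifngr1 was lower in U0126/TNFα than in TNFα cultures (log2 fold change -0.50, adjusted p = 0.0394). Irf1 kept both calls whichever array was left out, while both receptor chains lost theirs with U0126 present without either U0126 or either U0126/TNFα array, and the lower Ifngr1 was lost without any 1 array. Ifng itself read between 26.2 and 30.9 on all arrays, in the lowest few percent of probe sets, and Jak1 and Socs1 did not pass. Of the co-stimulatory molecules that accompany class II on professional antigen-presenting cells, Cd40, Cd80 and Cd86, 0 of 3 were called.

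**Figure D5:**
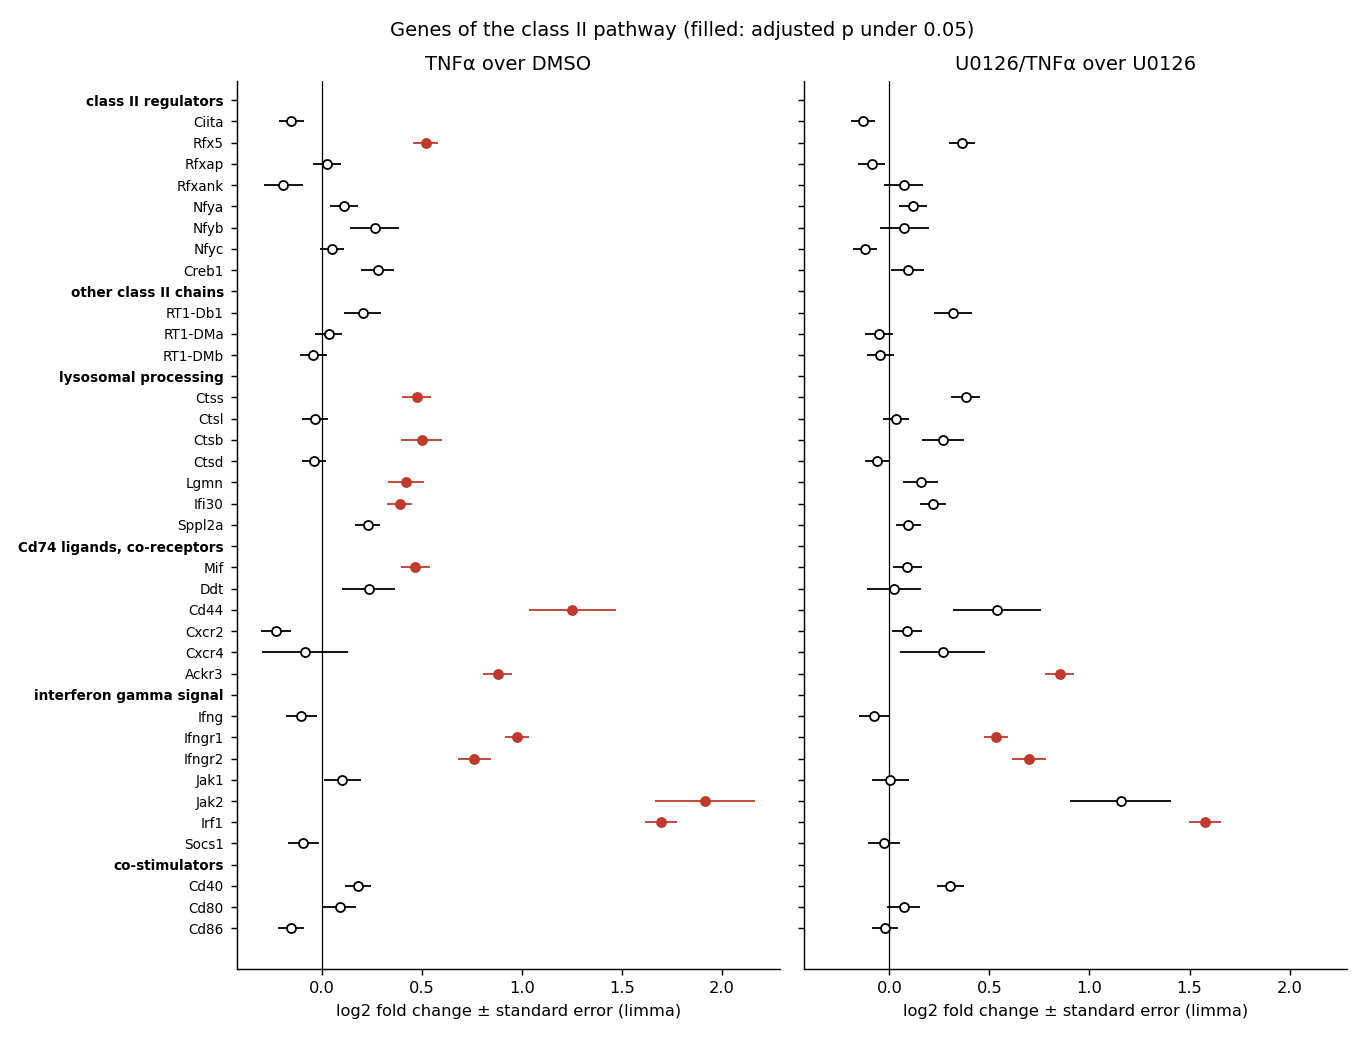
Log2 fold change with its standard error (horizontal axis, limma) of the genes around class II for TNFα over DMSO and U0126/TNFα over U0126, by list, with filled red points for an adjusted p under 0.05. For TNFα over DMSO, 4 of 7 interferon γ pathway genes, 4 of 7 processing genes, 3 of 6 genes of Cd74 partners and 1 of 8 regulators, Rfx5, are filled, and Ciita lies at -0.15.

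Among themselves the members fell into sets by their pattern over the 8 arrays. After the mean of each experiment was removed, Cd74 had a Pearson r of 0.947 with RT1-Da, 0.919 with RT1-Ba 1370822_at and 0.905 with RT1-Ba 1377334_at, and these RT1-Ba probe sets had an r of 0.96 with each other. Cd74 had an r of 0.734 and 0.722 with the RT1-Bb probe sets, and of -0.555 and -0.367 with the level RT1-Ba probe sets 1392334_at and 1381593_x_at. The arrays share treatments and experiments, so these values only describe likeness of shape. Among genes in the upper 60% of mean intensity, those most like Cd74 in shape were Zfp462 (r = 0.998), Ing1, Pxdn, Tcf20 and Dscc1, all with smaller TNFα over DMSO folds, between 1.13 and 1.64. Those most like RT1-Da were Haus6 (r = 0.993), Ccp110, Fam107b, Exosc7 and Ing1. For RT1-Ba 1392334_at they were Car5b (r = 0.986), Asrgl1, Ndufaf1, Prkag1 and Dhx34, and for RT1-Bb 1371065_at Parpbp (r = 0.981), Ska3, Cdk1, Kifc1 and Ccnb1, several of which act in mitosis.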

How the data were processed

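RNA of 8 cultures was measured on Affymetrix RAT230_2.0 arrays. The deposited values are 1 linear intensity per probe set and array, for which the submitters' processing notes name RMA, with no version, and per the paper the authors used GeneSpring, scaled chips to their 50th percentile and probe sets to DMSO. Neither scaling is present (array medians 365.1 to 378.2), so log2 values were centred here on the median of each array. The number of arrays limits the precision.

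limma 3.58.1 (R 4.3.3) was fitted to 31042 probe sets on all 8 arrays, with treatment and replicate number as terms, and p values were adjusted by Benjamini-Hochberg over all probe sets within each of 5 comparisons, with a threshold of 0.05. Replicate numbers were taken as the 2 independent experiments, since the methods compare each array with DMSO of its own experiment. Deviations of same-numbered arrays from their treatment means correlated at 0.728 to 0.829. Scripts were tested on simulated data.

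The members and gene lists were chosen with earlier results of these data known. Named are all members, list genes past the threshold in any comparison (up to 4 a list by smallest adjusted p), defining markers, the 5 genes most like each member, and list genes added after their values were seen. A listed gene is given by its brightest probe set. Motifs were searched with Python 3.11.15. Alternatives were no centring or quantile normalization, a filter on the lowest 40% of probe sets, a trended or robust prior, only the arrays compared, no replicate block, leaving out each array, fold thresholds of 1.3 and 2, and each experiment alone.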

Additional observations from a re-analysis of the deposited data

How the results depend on the processing

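Over 22 log2 fold changes of the members and 324 values under the alternatives, 293 kept their direction and side of the threshold, 16 lost a call, 4 gained one and 11 changed sign. The count of members called for TNFα over DMSO, 2, was 1 with no centring, 1 with a robust prior, 1 with only the 4 arrays compared, 0 with no replicate block, and 0 to 3 when single arrays were left out. With no replicate block, the adjusted p was 0.536 for Cd74 and 0.762 for RT1-Da. The count for U0126/TNFα over U0126, 0, was 1 with only the 4 arrays compared and 0 to 1 when single arrays were left out, RT1-Da in each case. By the fold rule, TNFα over DMSO took 2 members at 1.3-fold and 4 in experiment 2 alone, U0126/TNFα over U0126 took 0 at 2-fold and 4 in experiment 2 alone, and U0126/TNFα over TNFα took 1 at 1.3-fold and 1 in experiment 2 alone. Leaving out the lowest 40% of probe sets removed RT1-Bb from the test.

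When single arrays were left out, some small log2 fold changes crossed 0. U0126 over DMSO ran between -0.64 and 0.44 for Cd74 and between -0.16 and 0.23 for RT1-Da. U0126/TNFα over TNFα ran between -0.58 and 0.18 for RT1-Da, and its difference of responses between -0.61 and 0.15. TNFα over DMSO ran between -0.24 and 0.11 for RT1-Ba 1381593_x_at, between -0.16 and 0.039 for RT1-Ba 1392334_at, and between -0.031 and 0.34 for RT1-Bb 1371033_at. U0126/TNFα over U0126 ran between -0.072 and 0.76 for RT1-Ba 1370822_at and between -0.12 and 0.041 for RT1-Ba 1381593_x_at. Without crossing 0, Cd74 ran between 0.57 and 1.65 for U0126/TNFα over U0126, between -1.14 and -0.28 for U0126/TNFα over TNFα and between -1.15 and -0.076 for the difference of responses, and TNFα over DMSO ran between 0.49 and 1.25 for RT1-Da, 0.23 and 1.01 for RT1-Ba 1370822_at, and 0.16 and 1.00 for RT1-Ba 1377334_at. The list counts were run under the same alternatives, a choice made after seeing the data, and with no replicate block 0 genes of the 13 lists were called for TNFα over DMSO. For all these results, the cause of a change was not tested.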
